A study of Mus musculus with 2 samples.

Results

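The Hox genes encode homeodomain transcription factors that give cells their position along the head-to-tail axis of the embryo. In mammals they lie in 4 clusters, and genes at the same place in different clusters form paralog groups, numbered from the anterior to the posterior end. The protein-coding genes of GENCODE on mm10 named Hoxa, Hoxb, Hoxc or Hoxd with a number were taken as members, which gave 39 of the 21938 protein-coding genes on chromosomes 1 to 19, X and Y. Of these, 11 Hoxa genes lie on chromosome 6, 10 Hoxb genes on chromosome 11, 9 Hoxc genes on chromosome 15 and 9 Hoxd genes on chromosome 2. Each gene start was searched for an ATAC-seq peak with its summit within 500 bp, called a promoter peak here. All peaks between the first and the last gene of each cluster were also collected, together with those in the 100 kb on each side. In this way 101 of the 116782 deposited peaks were found, of which 63 lay inside the clusters and 38 in the flanks.

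The peaks stem from ATAC-seq, in which the transposase Tn5 tags accessible DNA, in EHMT2-dTAG-mcherry mouse ESCs, a BL6/129 hybrid made from the KH2 line. A degron cassette, FKBP12F36V-2xHA-P2A-NLS-mCherry, was placed in frame at the stop codon of their endogenous gene for EHMT2, an H3K9 methyltransferase. Both samples received DMSO for 24 h, the vehicle, and no degrading compound. The 2 replicates were independent clones of 50000 cells each, but the deposited list was called on both together. No value below therefore has a spread between replicates, no test between groups is possible, and intervals on fragment numbers cover counting error only.

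In mESCs the Hox clusters are known as targets of Polycomb repression with bivalent histone marks, and most Hox genes are silent until differentiation. Retinoic acid, which acts through RAR and RXR receptors, then activates them in order from anterior to posterior. Many Hox gene starts lie in CpG islands, stretches rich in the dinucleotide CG. Of pluripotent stem cell markers, 4 of 5 had a promoter peak, against 57.4% of all protein-coding genes. These were Pou5f1, Sox2, Nanog and Klf4, with fold enrichments from 2.83 to 5.68 and 17 to 44 fragments over the summit. Esrrb had a peak at another transcript start. The study grew its ESCs on feeder fibroblasts. Of 5 fibroblast markers, Thy1 and Prrx1 had a promoter peak, with fold enrichments of 5.45 and 2.68 and 11 and 15 fragments over the summit. At some transcript start, 4 of 5 had a peak, against 66.0% of all protein-coding genes. How much of any Hox peak came from feeder cells was not tested.

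The sequences at the summits show how CG content differed between some of the stronger peaks of the clusters. They are the mm10 plus strand from 100 bp before to 100 bp after the summit, with each CG in capitals. Shown are the highest promoter peaks of the Hoxc and Hoxd clusters, at Hoxc13 (chr15:102920751-102920951) and Hoxd1 (chr2:74763116-74763316), and the highest peaks inside a cluster that lay away from a Hox start. Those are between Hoxc13 and Hoxc12 (chr15:102931707-102931907) and at the start of the antisense RNA Hoxd3os1 (chr2:74715959-74716159).
Hoxc13: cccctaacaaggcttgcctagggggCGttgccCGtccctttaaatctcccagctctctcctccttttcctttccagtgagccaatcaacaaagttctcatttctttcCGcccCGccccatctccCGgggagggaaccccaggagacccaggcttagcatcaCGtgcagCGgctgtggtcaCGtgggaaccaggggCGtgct
Hoxd1: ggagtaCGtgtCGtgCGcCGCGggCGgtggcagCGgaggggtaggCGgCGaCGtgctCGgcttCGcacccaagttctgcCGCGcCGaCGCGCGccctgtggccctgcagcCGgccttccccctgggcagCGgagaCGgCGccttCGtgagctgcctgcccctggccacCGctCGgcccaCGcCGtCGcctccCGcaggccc
Hoxc13 to Hoxc12: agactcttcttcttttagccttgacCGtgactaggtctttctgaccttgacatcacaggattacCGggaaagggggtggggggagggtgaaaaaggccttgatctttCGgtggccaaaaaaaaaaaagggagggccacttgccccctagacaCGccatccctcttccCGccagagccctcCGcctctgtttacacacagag
Hoxd3os1: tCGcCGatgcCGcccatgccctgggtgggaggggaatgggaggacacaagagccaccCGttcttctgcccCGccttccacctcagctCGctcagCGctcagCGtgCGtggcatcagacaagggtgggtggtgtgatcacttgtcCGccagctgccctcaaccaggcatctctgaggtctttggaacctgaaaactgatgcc
The Hoxd1 window lies in coding sequence and had 29 CG. The Hoxc13 window, at the highest Hox promoter peak, had only 9, and the window between Hoxc13 and Hoxc12 had 6.

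For contrast, these are the 250 bases before the starts of Hoxa11 (chr6:52245811-52246060) and Hoxa2 (chr6:52164832-52165081), both without a promoter peak, from RefSeq on GRCm38.p6 in the direction of the gene (minus strand), with each CG in capitals. RefSeq promoters were at hand for 22 of the 39 genes.
Hoxa11: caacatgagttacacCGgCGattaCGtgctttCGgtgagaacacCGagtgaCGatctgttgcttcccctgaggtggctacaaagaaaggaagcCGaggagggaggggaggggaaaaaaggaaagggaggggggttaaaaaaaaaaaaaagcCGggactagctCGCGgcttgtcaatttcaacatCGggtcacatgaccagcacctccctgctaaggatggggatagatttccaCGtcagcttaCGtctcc
Hoxa2: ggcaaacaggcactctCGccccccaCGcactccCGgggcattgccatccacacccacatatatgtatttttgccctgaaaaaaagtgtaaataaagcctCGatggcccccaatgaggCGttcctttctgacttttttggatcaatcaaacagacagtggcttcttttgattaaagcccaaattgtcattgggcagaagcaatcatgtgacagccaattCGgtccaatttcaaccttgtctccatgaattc
They hold 13 and 6 CG, with observed over expected CpG ratios of 0.79 and 0.47, compared with 0.52 in the Hoxc13 summit window. The nearest summit lay 1855 bp from the Hoxa11 start.

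Promoter peaks were found at 20 of the 39 Hox gene starts, or 51.3%, against a background of 57.4% over all protein-coding genes. Because the starts of Hoxd3 and Hoxd4 are 2 bp apart and share a peak, the 20 genes stand for 19 peaks. CpG-rich windows, with at least 50% GC and an observed over expected CpG ratio of at least 0.6 in the 500 bp on either side, were found at 61.5% of Hox starts and 44.4% of all starts. Within this class, 14 of 24 Hox genes (58.3%) had a promoter peak, against 90.4% of all genes. In the other windows, the numbers were 6 of 15 Hox genes (40%) and 31.1% of all genes. Hox starts without a peak still had a median CpG ratio of 0.63, whereas all starts without a peak had a median of 0.20. Counting a peak at any annotated transcript start raised the Hox number to 25 genes, against a background of 66.0%. A peak lay over the gene start itself in 18 Hox genes, against a background of 59.2%.

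The clusters differed in how many of their genes had a promoter peak. All 9 Hoxd genes did, but only 5 of 11 Hoxa genes, 3 of 10 Hoxb genes and 3 of 9 Hoxc genes. The background over all protein-coding genes was 57.4%. Few Hoxd summits were close to the start, and with a distance of at most 250 bp the number fell to 3 of 9 Hoxd genes and 7 of the other 30, against a background of 47.8% over all genes. By position along the axis, the posterior paralog groups 9 to 13 had a peak at 10 of 16 genes (62.5%). The central groups 4 to 8 had one at 6 of 15 (40%), and the anterior groups 1 to 3 at 4 of 8 (50%). The posterior and anterior shares lie near the 57.4% of all genes. All 3 members of group 10 had a peak. In groups 2, 5 and 6, none of the 8 genes did. Yet a peak covered the starts of Hoxa5 and Hoxc5, with summits 717 and 754 bp away, and Hoxc5 and Hoxc6 had peaks at other transcript starts. These counts are small, and no test was made between clusters or groups.

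**Figure D1:**
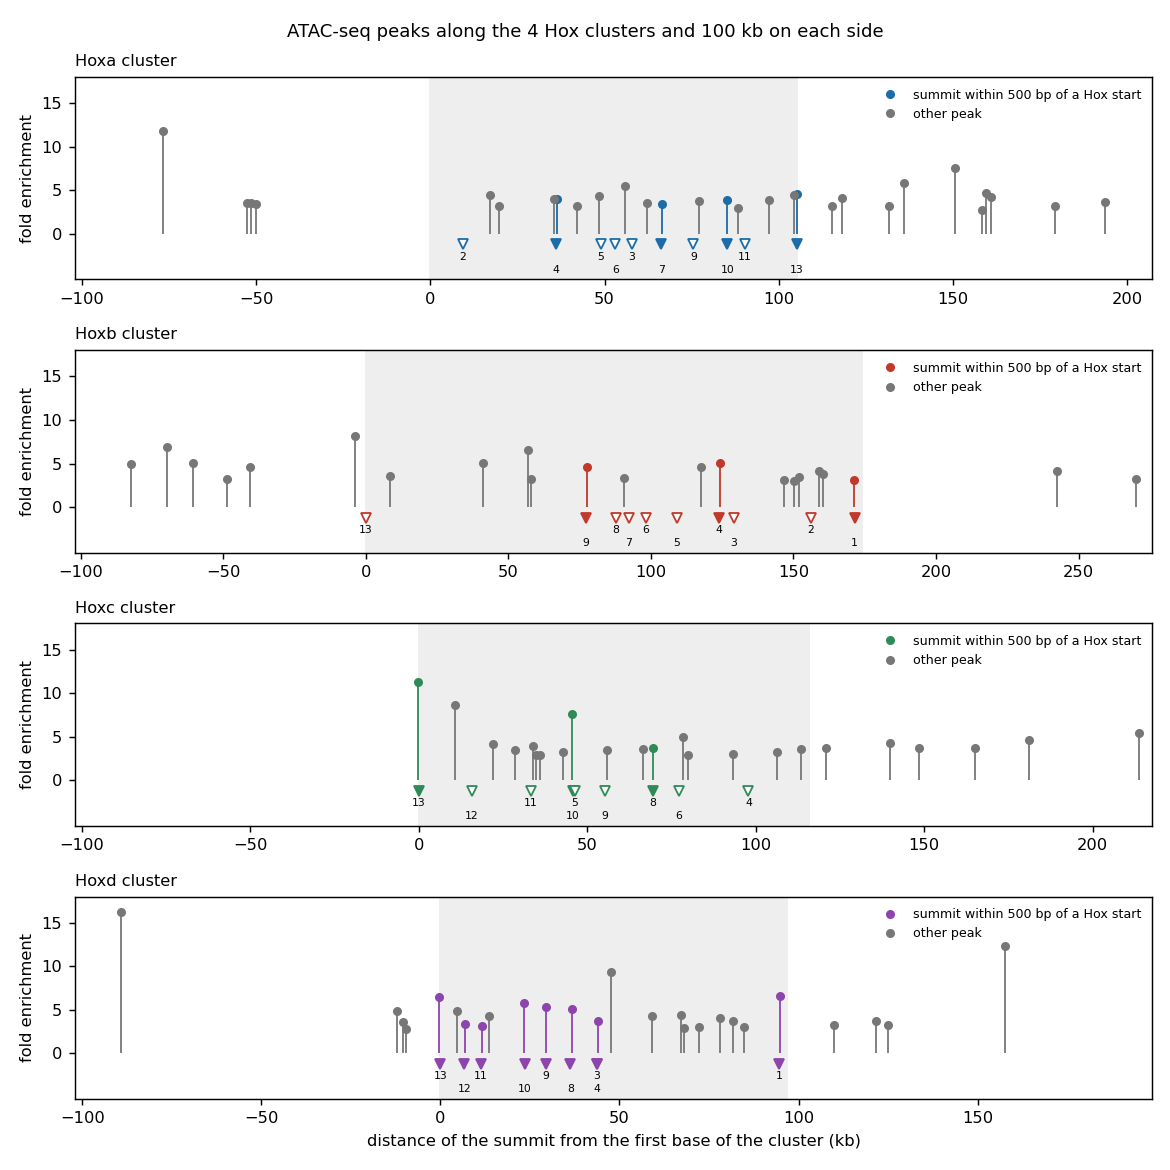
Fold enrichment of peaks (vertical axis) against the distance of its summit from the first base of the cluster in kb, with the span of the cluster in grey. Triangles mark Hox gene starts with their paralog numbers, filled where a promoter peak was found, and all 9 Hoxd triangles are filled but only 3 of 10 in Hoxb. Over all protein-coding genes, 57.4% had a promoter peak.

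Promoter peaks of Hox genes were weak beside those of all protein-coding genes. Fold enrichment divides the fragments over the summit by the local background, after adding 1 to both. It had a median of 4.60 and a range from 3.10 to 11.3 over the 20 genes, against a median of 8.68 and quartiles of 6.02 and 11.7 over the 12593 genes with a promoter peak. The fragments over the summit were also fewer, with a median of 12.5 (6 to 50) at Hox genes and 33 at all genes. The local background was no higher, with medians of 2.37 fragments at Hox genes and 2.90 at all genes. A low fold enrichment was not particular to Hox genes. The 4 pluripotent stem cell markers with a promoter peak had a median of 4.67, but with a median of 41 fragments. Of the 20 Hox genes, 19 lay below the median of all promoter peaks in fold enrichment, and 15 lay below the lower quartile. In CpG-rich windows alone the median was 14 fragments at 14 Hox genes and 39 at all genes. The median width of the Hox peaks was 1199.5 bp, compared with 1019 bp for all promoter peaks. Only 5 of the 39 Hox genes (12.8%) had a promoter peak with a −log10 q-value of at least 10, against 42.7% of all genes. Among them were Hoxc10, Hoxc13, Hoxd10 and Hoxd13.

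**Figure D2:**
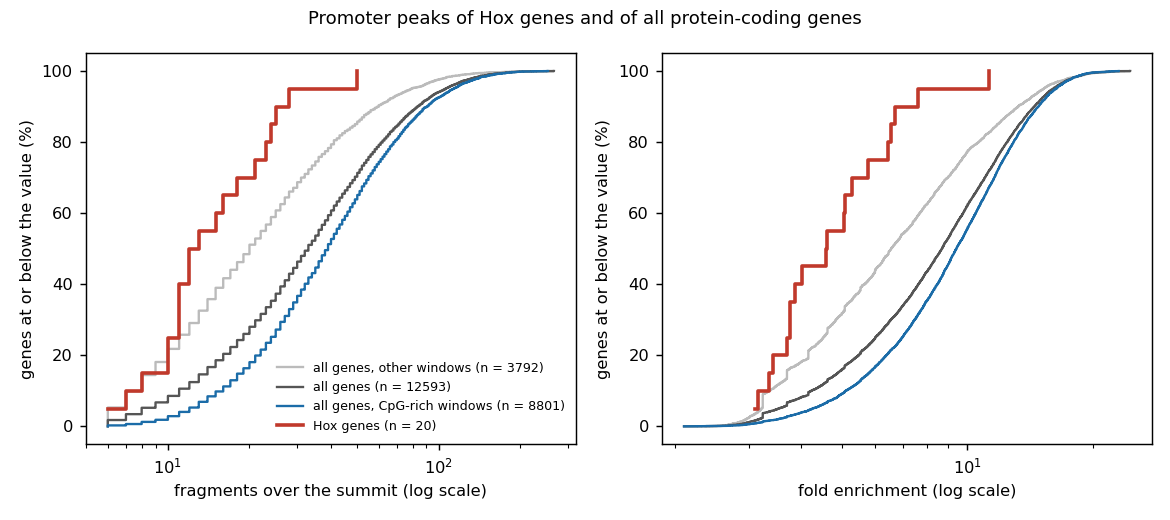
Percent of genes (vertical axis) at or below a number of fragments over the summit (left) or a fold enrichment (right), both on log axes, for the 20 Hox genes with a promoter peak and for all 12593 genes, also split into CpG-rich and other windows. The Hox curve reaches 50% at far fewer fragments (median 12.5) than the curve of all genes (median 33).

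**Figure D3:**
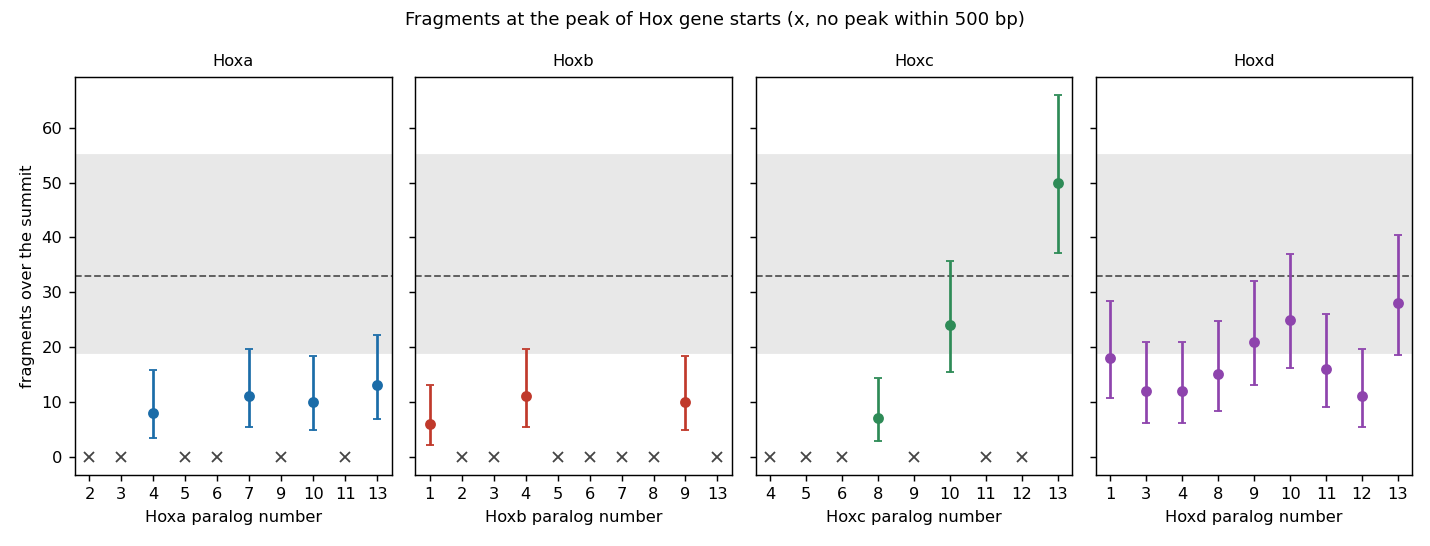
Fragments over the summit of the promoter peak (vertical axis) for Hox genes by paralog number, with exact Poisson 95% intervals as bars, and crosses for genes without a promoter peak. The dashed line and grey band are the median of 33 and the quartiles of 19 and 55 over all promoter peaks, and only Hoxc13, with 50 fragments, lies above the line.

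Hoxc13, a posterior gene known for its role in hair and nails, had the strongest promoter peak of the family. Its peak (chr15:102920470-102922169) had a fold enrichment of 11.3 and 50 fragments (exact Poisson 95% interval 37.1 to 65.9), above 72.1% of all promoter peaks in fold enrichment. The summit was 252 bp upstream of the start, and so just outside the span of the cluster. Within Hoxc, Hoxc10 followed with a fold enrichment of 7.62 and 24 fragments (15.4 to 35.7), an interval that does not reach that of Hoxc13. Hoxc8, which patterns the trunk, was the lowest with 3.70 and 7 fragments (2.81 to 14.4). The other 6 Hoxc genes had no promoter peak. Hoxc11 and Hoxc9 just missed the 500 bp, with summits at 546 and 625 bp, and Hoxc12 had its nearest summit at 4950 bp. The start of Hoxc5 lies 647 bp from that of Hoxc10 and under the same peak, whose summit is 754 bp from it. Hoxc6 and Hoxc4 had their nearest summits at 1193 and 4641 bp, but Hoxc4, Hoxc5, Hoxc6 and Hoxc9 each had a peak at another transcript start, with 7 to 10 fragments.

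In Hoxd, the highest fold enrichment was at Hoxd1, the most anterior gene of this cluster, with 6.55 and 18 fragments (10.7 to 28.4). Hoxd13, the most posterior and a gene of digit formation, was next with 6.44 and more fragments, 28 (18.6 to 40.5), over a higher background of 3.50 against 1.90. Hoxd10, with 5.78 and 25 fragments, and Hoxd9, with 5.29 and 21, stood between them and Hoxd8, with 5.06 and 15 fragments. The shared peak of Hoxd3 and Hoxd4 had 3.76 and 12 fragments. It lies where long transcripts of both genes start, and further peaks lay at their other starts, with 9 fragments for Hoxd3 and 11 for Hoxd4. Hoxd12 had 3.35 and 11 fragments. Hoxd11 was the lowest in fold enrichment, 3.16, although its 16 fragments (9.15 to 26.0) were not the fewest, since its background of 4.38 was the highest at any Hox promoter peak. The intervals of the fragment numbers of all Hoxd genes overlap, and an order within this cluster was not tested.

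In Hoxa, Hoxa13, at the posterior end and known for limb and urogenital development, had a promoter peak with a fold enrichment of 4.58 and 13 fragments (6.92 to 22.2), and its summit lay 22 bp from the start. Hoxa4, Hoxa10 and Hoxa7 had between 8 and 11 fragments, with the lowest fold enrichment, 3.43, at Hoxa7. Hoxa2, Hoxa3, Hoxa5, Hoxa6, Hoxa9 and Hoxa11 had no promoter peak. Of these, Hoxa5 was a near miss: a peak of 1866 bp covered its start, but its summit, with 14 fragments, lay 717 bp downstream in coding sequence. The nearest summits were 1701 to 2805 bp away for Hoxa3, Hoxa6, Hoxa9 and Hoxa11.

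Hoxb had the lowest share of genes with a promoter peak. Hoxb4 had a fold enrichment of 5.08 and 11 fragments (5.49 to 19.7), Hoxb9 had 4.62 and 10 fragments, and Hoxb1, which patterns the hindbrain, had the lowest value of the whole family with 3.10 and 6 fragments (2.2 to 13.1). The summits at Hoxb4 and Hoxb9 were 428 and 429 bp downstream of the start. Hoxb2, Hoxb3, Hoxb5, Hoxb6, Hoxb7, Hoxb8 and Hoxb13 had no promoter peak, with nearest summits from 1676 bp for Hoxb7 to 8543 bp for Hoxb5. The longest stretch without a summit inside any cluster, 32.3 kb, lay between Hoxb13 and Hoxb9. At another transcript start, Hoxb3 had a peak of 6 fragments. Hoxb windows also had the lowest median CpG ratio, 0.47, compared with 0.65 to 0.72 in the other clusters.

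Although Hox promoter peaks were weak beside those of all genes, peaks were dense inside the clusters. The 63 peaks there amount to 12.8 per 100 kb and cover 11.2% of bases, against 4.75 per 100 kb and 3.20% in the flanks, and 4.41 per 100 kb and 2.94% over the genome. Density was 17.6 per 100 kb in Hoxd, 15.2 in Hoxa, 13.8 in Hoxc and 8.05 in Hoxb, and in each case higher than in the flanks (4.5, 7, 3.5 and 4) and on the whole chromosome (4.09 to 5.20). Windows of 100 kb across the genome had a median of 4 peaks and a 99th percentile of 14. Peaks inside the clusters were about as high as others, with a median fold enrichment of 3.85 against 3.98 genome-wide, and wider, with a median of 818 bp against 589 bp. High peaks were scarce: 5 of 63 (7.94%) had a −log10 q-value of at least 10, against 18.4% in the flanks and 22.2% genome-wide. Of the 7 such flank peaks, 2 were the promoter peaks of Hoxc13 and Hoxd13, with summits 252 and 327 bp outside the span of the cluster. The Hoxc13 peak was the only such peak in the Hoxc flanks. With only such peaks counted, the density was 2.07 per 100 kb in Hoxd and 1.50 in its flanks, 1.73 and 0.50 in Hoxc, 0.95 and 1 in Hoxa, and 0 and 0.50 in Hoxb. The clusters also differed from their flanks in sequence, with a CpG ratio of 0.35 to 0.48 inside against 0.18 to 0.25, and 13.4 to 24.6% against 22.8 to 32.5% repeat-masked bases. The part of base composition in the density of peaks was not tested.

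**Figure D4:**
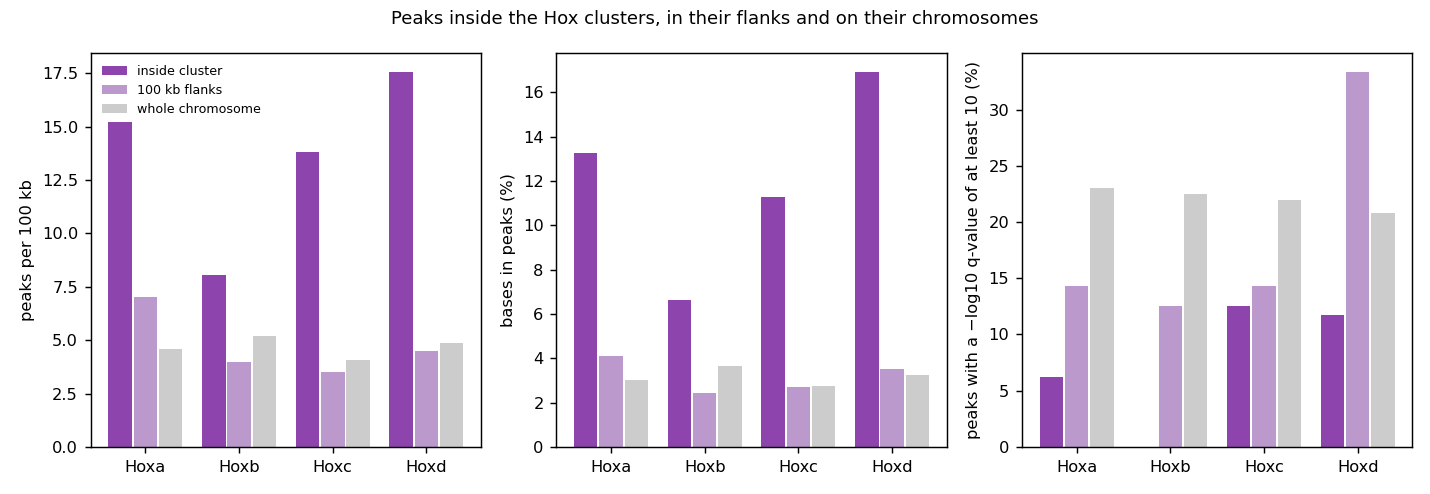
Peaks per 100 kb (left), percent of bases in peaks (middle) and percent of peaks with a −log10 q-value of at least 10 (right) inside each cluster, in its flanks of 100 kb on each side and on its whole chromosome. Inside bars are the highest in the left and middle plots for all 4 clusters, and lower than the chromosome bars in the right plot. The flank bars of Hoxc and Hoxd include the promoter peaks of Hoxc13 and Hoxd13.

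Of the 63 peaks inside the clusters, 17 had their summit at a Hox gene start and 8 at another start of a Hox transcript. Another 10 were at starts of other genes, 7 in coding exons, 2 in other exons, 11 in introns and 8 between genes. The highest of all was not at a Hox gene start but at that of Hoxd3os1, an antisense RNA gene within the annotated bodies of Hoxd3 and Hoxd4 (chr2:74715871-74716457), with a fold enrichment of 9.39 and 33 fragments (22.7 to 46.3). Next was the peak between Hoxc13 and Hoxc12 (chr15:102931454-102932247), with 8.67 and again 33 fragments, 4950 bp from the Hoxc12 start. Both lie above the other inside peaks away from Hox starts. The second in each of these clusters was a peak between Hoxd13 and Hoxd12 (chr2:74672792-74673304), with 4.93 and 19 fragments, and a peak in introns of Hoxc5 and Hoxc6 (chr15:102998859-102999627), with 4.92 and 12 fragments. In Hoxb, the 2 highest were at the lincRNA Gm53 (chr11:96250890-96251627), with 6.61 and 15 fragments, and between genes 36206 bp from Hoxb9 (chr11:96235066-96235368), with 5.08 and 10 fragments. In Hoxa, the highest was in an intron of Hoxa3 (chr6:52211331-52212474), with 5.56 and 16 fragments, followed by a peak in coding sequence of Hoxa13 (chr6:52259470-52260287), with 4.51 and 12 fragments.

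The clusters hold 43 annotated genes that are not protein-coding, of which 12 had a peak with its summit within 500 bp of their start, against a background of 4340 of all 33475 such genes, or 13%. These include 5 of 9 antisense genes, against 27.3% of all antisense genes, and 2 of 5 lincRNA genes, against 18.7%. None of the 7 miRNA genes had one, against 12.8%. At Haglr, next to Hoxd1, and Gm28793, next to Hoxd9, the peak was also that of the Hox gene. Gm28011 and Gm27535 in Hoxc shared a peak, so the 12 genes stand for fewer separate peaks. Hotair and Hotairm1, RNAs known for roles in Hox regulation, had none. Starts of genes in the flanks outdid the Hox starts in Hoxd, where Lnpk had a fold enrichment of 16.2 with 88 fragments and Mtx2 had 12.4 with 50. Evx1 and Evx2, homeobox genes next to Hoxa and Hoxd, did not. Evx1 had 2.71 with 10 fragments at its start. Higher peaks lay close by, at a start of the antisense gene Evx1os (4.70, 18 fragments) and in coding sequence of Evx1 (4.23, 15 fragments). Evx2 had no promoter peak but had 3 peaks in its body, with 12 to 19 fragments. Around Hoxb, Ttll6, Calcoco2 and Skap1 had 11, 11 and 6 fragments.

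In the flanks, some peaks away from gene starts were also high. In the Hoxa flank, a peak between genes (chr6:52078545-52079338) had a fold enrichment of 11.8 and 42 fragments (30.3 to 56.8). In the Hoxb flank, a peak 3940 bp from Hoxb13 (chr11:96190015-96190633) had 8.16 and 23 fragments. The Hoxc flank held, besides the Hoxc13 peak, a highest value of 5.40 in an intron of D930007P13Rik, with 14 fragments.

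Other genes of the same pathway were read from fixed lists, against the background of 57.4% of all genes with a promoter peak and their median fold enrichment of 8.68. Of 9 genes for cofactors that bind DNA with Hox proteins, 7 had a promoter peak with a median fold enrichment of 8.16, and Pbx4 had a fold enrichment of 15.4. Pbx2 and Meis1 had none, though Meis1 had a peak at another transcript start. Of 8 ParaHox and Evx genes, relatives of the Hox genes outside or beside the clusters, 7 had a promoter peak, with a median fold enrichment of 4.60, the value also found for the Hox genes. Gsx1 was the highest with 7.24 and 32 fragments. Of 6 retinoic acid receptor genes, Rara, Rxrb and Rxrg had a promoter peak with 9 to 21 fragments, and all 6 had one at some transcript start, against 66.0% of all genes. At Rarb, itself a target of retinoic acid, that peak had 42 fragments and a fold enrichment of 12.0.

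Motifs were searched on both strands as fixed letters in the 100 bp on either side of each summit. A core of the CTCF motif with 8 fixed and 4 free letters was found at 3 of the 63 summits inside the clusters (4.76%) and at 3.83% of all peaks. CTCF is an insulator protein that organizes Hox domains. The 3 matches were at the promoter peak of Hoxa10, at a transcript start of Hoxc6 and at the peak 36206 bp from Hoxb9. Their letters, with the fixed positions in capitals, are as follows, at chr6:52240541-52240552 (minus strand), chr15:103000805-103000816 (minus strand) and chr11:96235285-96235296 (plus strand).
Hoxa10: CCAcgAGatGGC
Hoxc6: CCAggAGaaGGC
Hoxb9 side: CCAgaAGaaGGC
Of all 33 matches inside the clusters, 6 lay anywhere in a peak, and peaks cover 11.2% of the bases there. The Sp/KLF box CCCCGCCC, common in CpG island promoters, was found at 2 of 19 Hox promoter peaks (10.5%), at Hoxc13 and Hoxd13, and at 22.7% of all promoter peaks. The octamer ATGCAAAT of the pluripotency factor OCT4 was at 0 of 63 summits, against 2.23% of all peaks, and the Pbx-Hox site TGATNNAT at 2 of 63 (3.17%), against 5.86%.

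Retinoic acid response elements, direct repeats bound by RAR and RXR, were searched across the clusters and flanks because these genes respond to retinoic acid. With a spacer of 5 bases, 10 matches were found, 4 of them inside, and 1 lay in a peak. With a spacer of 2 bases there were 12 matches, of which none lay in a peak. Peaks cover 11.2% of bases inside the clusters and 3.20% in the flanks, and the matches are too few to set against these shares. The match in a peak (chr6:52175533-52175549, minus strand) was at the start of the antisense RNA Hoxaas3, in a peak of 9 fragments. It is printed with the repeats in capitals.
Hoxaas3: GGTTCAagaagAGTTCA
This is a letter match only, and binding was not measured.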

How the data were processed

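Peaks of ATAC-seq in EHMT2-dTAG mESCs treated with DMSO were analysed. The authors used BBMap for trimming, STAR 2.7.10 for alignment to mm10, with multi-mapping reads at 1 random best location, and Picard 2.26.0 for duplicates. They also removed ENCODE High Signal Regions, shifted fragments for Tn5 and called peaks with MACS2 2.2.6. The deposited file holds 1 list for both clones merged, with the fold enrichment as a ratio and the −log10 p-value and −log10 q-value of each summit. Library totals were not analysed here, and reads at repeats may stem from other copies.

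From the deposited fold enrichment and p-value, the number of fragments over each summit and the Poisson background were calculated with the MACS2 formulas, and 116778 numbers came out whole within a tolerance of 0.001 in −log10 p. On simulated peaks, 100% of 1959 numbers were recovered. Intervals are exact Poisson 95% intervals with the background held fixed. Gene starts are those of GENCODE vM21, an earlier release than the study used, and the highest peak was taken where several qualified. The members, lists and motifs were chosen with earlier results of these data known. Genes named with values are the Hox genes, the 2 highest other peaks inside each cluster and the highest in its flanks. Values are also given for protein-coding genes in the flanks and for cell type markers. Single members of the other fixed lists were named with values without a fixed rule. Python 3.11.15, NumPy 2.4.6, pandas 2.3.3 and SciPy 1.17.1 were used. Some items are counted but not reported here. With a single merged list, no test was made. Alternatives were a stricter q-value, other distances, other starts, fewer repeats and other flanks.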

Additional observations from a re-analysis of the deposited data

How the results depend on the processing

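No paired analysis was possible because the single list merges the clones and there are no groups to compare. For the same reason neither clone could be left out. A minimum −log10 q-value of 10 moved most values: 5 Hox genes kept a promoter peak (2 Hoxd genes and 3 of the other clusters), and their median fold enrichment was 6.70. The Hox share of genes with a promoter peak then lay 29.9 percentage points below that of all genes (-29.9, from -6.12) and 59.0 points below within CpG-rich windows (-59.0, from -32.0). Peaks per 100 kb fell to 0.95, 0, 1.73 and 2.07 inside Hoxa, Hoxb, Hoxc and Hoxd, and to 1, 0.50, 0.50 and 1.50 in their flanks. The flank values of Hoxc and Hoxd include the promoter peaks of Hoxc13 and Hoxd13. With summits within 250 bp, 10 Hox genes had a promoter peak, 3 in Hoxd and 7 in the other clusters, and the Hox share minus that of all genes was -22.1 points. The Hoxc flanks had 7.50 peaks per 100 kb at 200 kb, and the Hoxd flanks 7 at 50 kb. Under every setting tried for it, the Hox share was below that of all genes, but all settings recount the same list. With any transcript start it was 64.1% (25 of 39 genes) against 66.0% (-1.94 points). With summits within 1000 bp it was 61.5% (24 of 39) against 64.0% (-2.42). Both of these shares lie near those of all genes. The gap was 13.1 points with a peak over the start (-13.1), and larger with the stricter q-value and within 250 bp. Within windows under a stricter definition of CpG-rich, the 9 Hox genes lay 24.5 points below all genes of that class (-24.5). The comparisons of shares and the split into Hoxd and other clusters were chosen after seeing the data. With a minimum of 6 fragments in any promoter peak, a gene without a peak may be accessible below the depth of this list.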
